A study of Rattus norvegicus with 6 samples.

Results

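The genes described here are 10 genes of bone morphogenetic protein (BMP) and activin signalling, measured in rat neuronal progenitor cells given corticosterone or its solvent. They are the ligand genes Bmp4, Bmp7 and Inhba, the receptor gene Bmpr1a, the transducer gene Smad9, the inhibitor genes Smad6, Smad7 and Tob1, the secreted antagonist gene Fst and the membrane protein gene Tmem100. They are 10 of the 14218 genes that the platform annotation names, and every probe set assigned to 1 of these symbols was taken, which gave 19 of the 31099 on the array and covered all 10 genes. The genes were taken by name, with no threshold on the signals, but with earlier results of these data known, so their counts are a description and not independent evidence. Dividing neural precursors were prepared from the cerebral cortex of rat embryos at E15.5 and grown on fibronectin in the presence of the mitogen bFGF, a fibroblast growth factor, at 20 ng/ml. Corticosterone-treated cultures received 1 µM of this glucocorticoid hormone for 48 h. Vehicle cultures received dimethyl sulfoxide (DMSO) for the same 48 h. Each of the 6 samples, 3 per treatment, was hybridised to its own 1-colour Affymetrix array, and the samples form 3 couples of a corticosterone and a vehicle sample. Whether each couple was a culture of its own is not stated in the sources used here. The p-values rest on the spread between these 3 couples, which may be technical, pooled in part with that of probe sets of similar signal. The number of arrays limits the precision.

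BMPs and activins belong to the transforming growth factor β (TGF-β) superfamily. A ligand dimer joins type I and type II receptors, and the type I receptor phosphorylates a receptor-regulated Smad protein, which enters the nucleus with Smad4 and changes transcription. Secreted proteins such as noggin and follistatin bind the ligands outside the cell, and the inhibitory Smads act on the receptors and Smads inside it. In the developing cortex BMP signals are known for favouring astrocyte formation, in part through the Id genes, whose products block basic helix-loop-helix transcription factors.

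Values are MAS5 signals on a linear scale, and a signal of 22.8, below which 95% of the values of 27 bacterial control probe sets lie, is called the background. The share of probe sets above it was 78.3% to 80.7% on the corticosterone arrays and 75.3% to 78.1% on the vehicle arrays. All 11 listed progenitor markers on the array lay above background on all 6 arrays, Sox2, Pax6 and Nes among them. Their summed signal, most of it from Vim and Fabp7, was 63929 to 70962 with corticosterone and 57740 to 69789 with vehicle. Mesenchymal signal differed between couples: Lum, a fibroblast proteoglycan gene, had a signal of 143 with corticosterone and 136 with vehicle in couple 2, and lay under background on the other 4 arrays.

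Promoter windows are shown for 2 members that were higher with corticosterone in each couple and that the sequence table holds. They are Tob1, which passed the test, and Smad9, which missed it narrowly. Their RefSeq promoter windows, 250 bases before to 50 after the annotated start in rat build GRCr8, are printed 5′ to 3′ so that the letters searched can be seen. Capitals mark a match to 1 of 5 motifs searched on both strands.
Tob1, chr10:79659743-79660042, + strand: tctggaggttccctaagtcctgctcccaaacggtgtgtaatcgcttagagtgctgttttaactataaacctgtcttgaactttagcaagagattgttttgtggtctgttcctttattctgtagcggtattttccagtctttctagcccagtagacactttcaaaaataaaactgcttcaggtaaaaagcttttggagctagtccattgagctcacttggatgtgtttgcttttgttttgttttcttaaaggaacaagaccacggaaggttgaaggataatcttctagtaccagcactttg
Smad9, chr2:141106418-141106717, + strand: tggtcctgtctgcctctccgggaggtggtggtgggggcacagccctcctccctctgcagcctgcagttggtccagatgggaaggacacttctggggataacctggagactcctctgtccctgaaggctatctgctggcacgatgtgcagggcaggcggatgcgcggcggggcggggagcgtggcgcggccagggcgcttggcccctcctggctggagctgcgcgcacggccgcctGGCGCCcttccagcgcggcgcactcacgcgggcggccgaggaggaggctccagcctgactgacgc
The motifs were the BMP-response letters GGCGCC and GCCGNCGC, the Smad palindrome GTCTAGAC, AGAACA, which is 1 arm of the glucocorticoid response element, and that whole palindromic element. GGCGCC and GCCGNCGC can overlap, and AGAACA lies within the whole element. The Smad9 window held 1 match, GGCGCC at bases -15 to -10 from the start, and the Tob1 window held none of the 5. Each window lies at 1 annotated start, which for Tob1 and Bmpr1a may be that of an upstream or alternative transcript, so neither a match nor its absence there bears on other starts. Across all 33469 promoter windows GGCGCC was found in 11.02%, GCCGNCGC in 9.34%, GTCTAGAC in 0.197%, AGAACA in 20.7% and the full response element in 0.0149%. The table held 6 of the 10 genes, and the other windows were those of Bmp4, Bmpr1a, Inhba and Smad7. GGCGCC was found in 2 of these 6 windows, GCCGNCGC in 1 and AGAACA in 1, while GTCTAGAC and the full response element were found in none. The AGAACA match lay in the Bmpr1a window, on the other strand, at bases -181 to -176.

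With corticosterone, 3 of the 10 genes rose: Tmem100, a small membrane protein gene that BMP-family ligands induce in mouse endothelium, Fst, which encodes follistatin, the secreted protein that binds activin and some BMPs, and Tob1, an antiproliferative gene whose product represses BMP-Smad transcription in mouse bone cells. None of the members tested fell. Smad9 and Bmp7 lay higher in each couple without passing, Bmpr1a and Smad6 did not pass either, and Bmp4, Inhba and Smad7 were too dim to be tested. In cultures measured as a whole, a change in the number of cells of a type and a change in RNA per cell cannot be told apart.

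Of the 19 probe sets, 8 passed the filter on low signals, which leaves out the dimmest 40%, and they stand for 7 genes. A limma model with treatment and couple as terms called 4 of the 8 at an adjusted p under 0.05, all of them higher, where 15.9% of all 18625 probe sets tested were called and 9.40% were called higher. By gene, 3 of 7 were higher and 0 lower, where 11.7% of the 9910 genes tested were higher and 7.77% lower. Before adjustment, limma gave p under 0.05 for 5 of the 7 genes, all higher, where 18.8% of all genes tested were higher at that threshold. The median log2 fold change of the 7 genes was 0.53, against -0.0021 over all genes tested. The filter used the mean of all 6 arrays, and both Fst probe sets and the bright Tmem100 probe set passed it through their corticosterone signals alone. Their entry raised the counts of higher calls and the median above, so these are no evidence about the members. Those that passed do not stand for all members. Nearest to the filter, which lies at a signal of 63.6, were Smad6 probe set 1375121_at inside it with an average of 70.5 and Bmp4 outside it with 39.3.

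**Figure D1:**
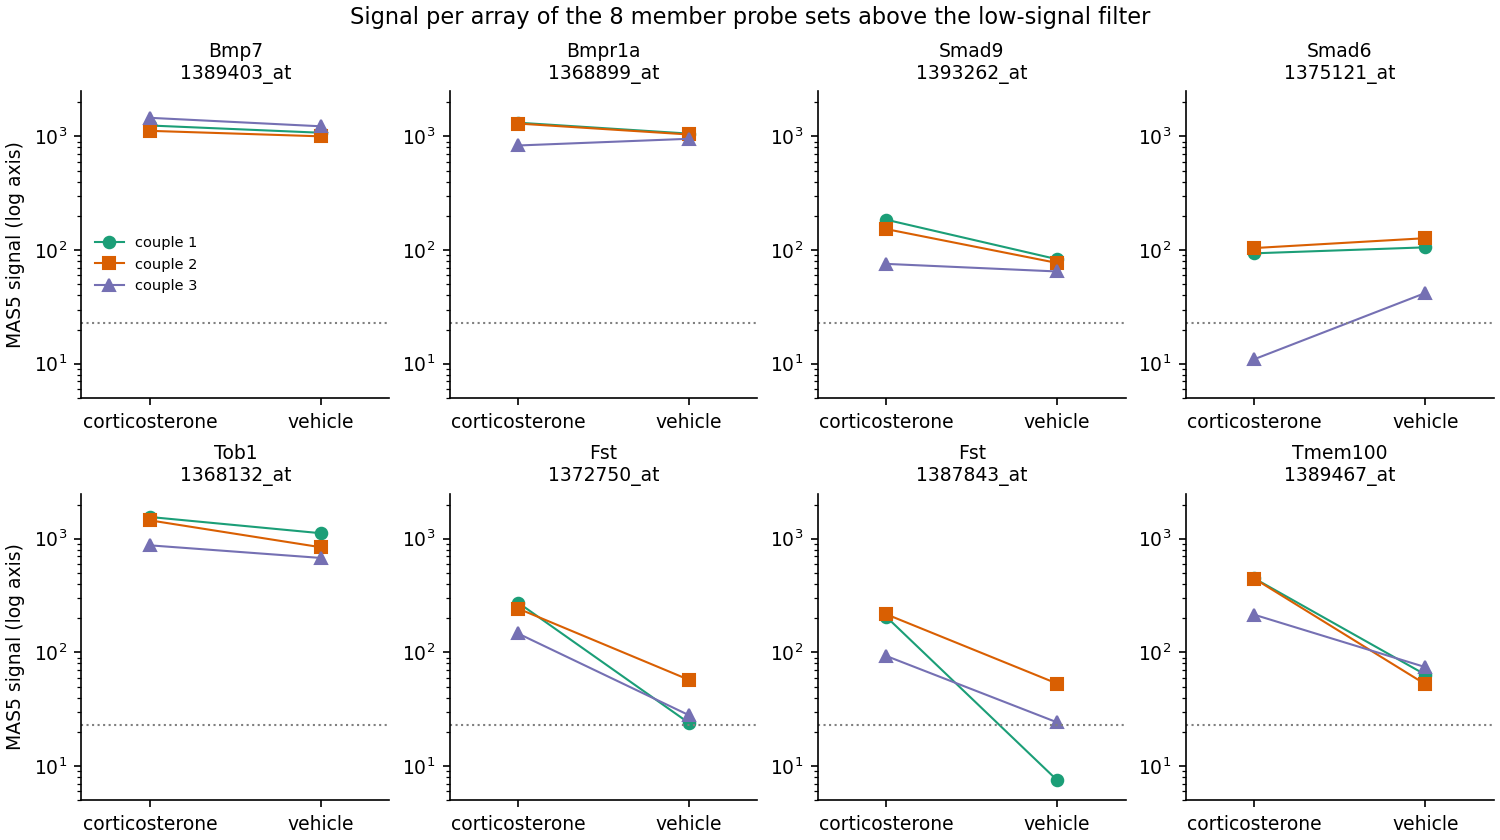
MAS5 signal (log axis) of each tested member probe set on the 6 arrays, with the corticosterone array left of the vehicle array of the same couple, joined by a line. The dotted line is the background signal of 22.8. All 3 corticosterone arrays lie above all 3 vehicle arrays for both Fst probe sets and for Tmem100, and the groups overlap in the other 5 panels.

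Among the ligands, Bmp7, a BMP also made by the meninges and the choroid plexus, had signals of 1249, 1121 and 1459 with corticosterone in couples 1, 2 and 3, against 1078, 1003 and 1229 with vehicle. It was higher in each couple, by similar amounts, while the 2 groups overlapped because couple 3 was brighter in both. Its log2 fold change was 0.20 ± 0.08 (SE), with a 95% interval of 0.036 to 0.37, and it did not pass (limma adjusted p = 0.097). With each array centred on its median it was 0.10. Bmp4, a ligand of the dorsal midline and of the choroid plexus in the embryonic forebrain, had signals of 52.5, 37.5 and 20.2 with corticosterone, against 36.0, 52.2 and 43.0 with vehicle. These signals lie close to background, and the difference pointed up in couple 1 and down in couples 2 and 3.

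Inhba encodes the βA subunit, which pairs with itself to form activin A. Its probe set 1369012_at had signals of 9.11, 56.6 and 12.5 with corticosterone, against 40.9, 35.5 and 26.8 with vehicle. The second, 1383486_at, had 20.7, 20.4 and 23.3 with corticosterone, against 7.83, 36.0 and 1.66 with vehicle. Neither kept 1 direction over the couples, and both were below the filter, so a difference in Inhba was not detectable at this signal.

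The type I receptor gene Bmpr1a had signals of 1322, 1300 and 833 with corticosterone, against 1059, 1041 and 954 with vehicle. Couples 1 and 2 were higher by 0.31 each on the log2(signal + pseudocount) scale, and couple 3 was lower, at -0.19. The log2 fold change was 0.15 ± 0.10 (SE; 95% interval -0.085 to 0.37) and did not pass (limma adjusted p = 0.40). With couple 3 left out it was 0.31 (limma adjusted p = 0.047).

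Smad9, which encodes a receptor-regulated Smad of the BMP branch, had signals of 185, 153 and 75.6 with corticosterone at probe set 1393262_at, against 83.0, 77.0 and 64.8 with vehicle. It was about as much higher in couple 1 as in couple 2, with ratios of 2.23 and 1.99, and the ratio in couple 3 was 1.17. The groups overlapped because the corticosterone array of couple 3 lay below the vehicle arrays of couples 1 and 2. The log2 fold change of 0.63 ± 0.20 (SE; 95% interval 0.19 to 1.06) did not pass (limma adjusted p = 0.055). Without couple 3 it was 0.86 (limma adjusted p = 0.016), so this call depends on that couple. The other Smad9 probe set, 1370716_at, lay near background with 9.46, 46.0 and 13.6 for corticosterone, against 10.6, 26.7 and 31.9 for vehicle, and showed no common direction.

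**Figure D2:**
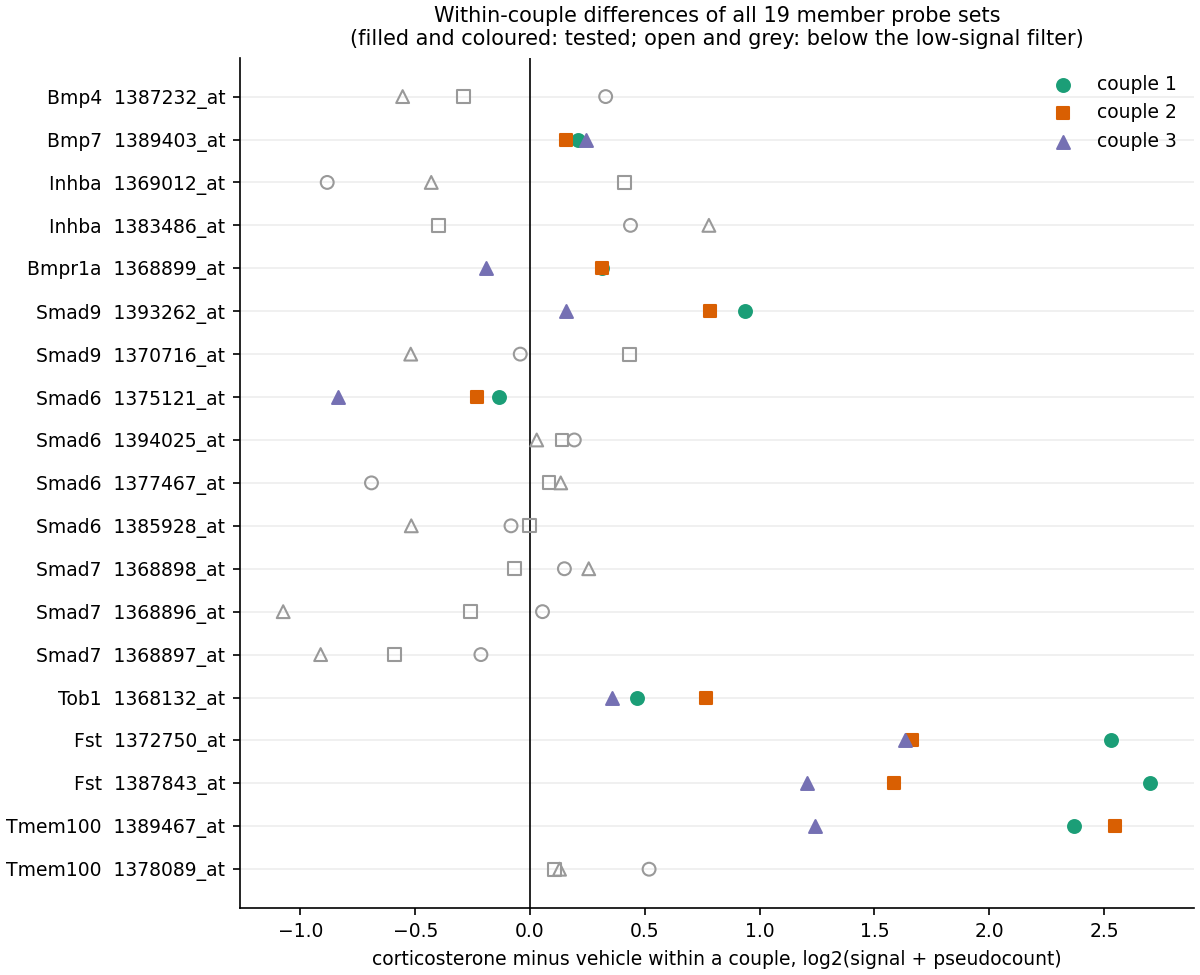
Corticosterone minus vehicle within each couple, on the log2(signal + pseudocount) scale, for all 19 member probe sets, with 1 symbol shape per couple. Filled symbols are probe sets that were tested and open grey symbols those below the low-signal filter. The differences of the Fst, Tob1, Bmp7, bright Smad9 and bright Tmem100 probe sets are above 0 in all 3 couples. So are those of the dim probe sets Smad6 1394025_at and Tmem100 1378089_at, and those of most other dim probe sets scatter around 0. Below 0 in all 3 couples are Smad6 1375121_at, which was tested, and the dim probe sets Smad6 1385928_at and Smad7 1368897_at.

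The inhibitory Smad genes Smad6 and Smad7, whose products are feedback inhibitors of the pathway, gave little signal. At Smad6 probe set 1375121_at the signals were 93.7, 104 and 11.0 with corticosterone, against 106, 127 and 41.9 with vehicle. Corticosterone was lower in each couple, but the groups overlapped, and the corticosterone array of couple 3 lay under background. The log2 fold change was -0.40 ± 0.21 (SE; 95% interval -0.87 to 0.071; limma adjusted p = 0.24), and -0.18 without couple 3. This probe set passed the filter through its vehicle signals alone. The other 3 Smad6 probe sets ranged from 2.90 to 30.4 with corticosterone and from 2.01 to 30.8 with vehicle.

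Smad7 was covered by 3 probe sets, all below the filter. Signals at 1368898_at were 37.6, 32.9 and 48.3 with corticosterone, against 31.0, 35.8 and 35.8 with vehicle. At 1368896_at they were 23.4, 27.8 and 1.99 with corticosterone, against 21.5, 38.9 and 35.8 with vehicle. These 2 probe sets moved both ways over the couples. At 1368897_at the corticosterone signals of 16.8, 2.44 and 7.43 lay below the vehicle signals of 24.1, 18.1 and 39.2. All 3 corticosterone arrays were under background there, and groups did not overlap at 12.8% of all probe sets below the filter. The limma adjusted p without the filter was 0.17, and in that fit 3.99% of all probe sets were called higher and 2.01% lower. Among the 11 member probe sets below the filter, 0 passed limma without it and 1 had an unadjusted p under 0.05 in that fit, where 9.12% of all probe sets below the filter did.

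Tob1 had signals of 1553, 1451 and 874 with corticosterone, against 1118, 841 and 677 with vehicle. It rose in each couple, by ratios of 1.39, 1.73 and 1.29, although the groups overlapped, since couple 3 was dimmer under both treatments. The log2 fold change was 0.53 ± 0.09 (SE; 95% interval 0.32 to 0.73; limma adjusted p = 0.0031), a rise of 1.44-fold. In the model that leaves out the couple, Tob1 did not pass (limma adjusted p = 0.32; 2.24% of all probe sets were called), nor did it without the intensity trend of the variance (0.055). Leaving out couple 2 also ended the call (limma adjusted p = 0.051, log2 fold change 0.41).

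Fst was measured by 2 probe sets, which agreed in direction. At 1372750_at the signals were 274, 243 and 147 with corticosterone, against 23.9, 57.3 and 28.0 with vehicle. At 1387843_at they were 206, 216 and 92.9 with corticosterone, against 7.49, 53.1 and 24.2 with vehicle. Every corticosterone array lay above every vehicle array at both, and the vehicle signals lay close to background, with couple 1 under it at 1387843_at. The rise on the log2(signal + pseudocount) scale was 1.94 ± 0.21 (SE; limma adjusted p = 1.6e-04) at the first and 1.83 ± 0.27 (SE; limma adjusted p = 0.0010) at the second. That scale understates the change of dim genes: with a pseudocount of 1 the values were 2.63 and 2.84, and with a pseudocount of 100 they were 1.22 and 1.06. The plain ratio of signals at 1372750_at was 11.5, 4.24 and 5.24 in couples 1, 2 and 3.

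Tmem100 had signals of 447, 445 and 214 with corticosterone at probe set 1389467_at, against 63.6, 52.4 and 74.1 with vehicle. The groups did not overlap, and the vehicle arrays lay within a narrow range above background. The rise was 2.05 ± 0.23 on the log2(signal + pseudocount) scale (SE; limma adjusted p = 1.6e-04), with within-couple ratios of 7.03, 8.49 and 2.89. The other Tmem100 probe set, 1378089_at, had 15.9, 5.18 and 5.67 with corticosterone, against 2.49, 2.80 and 2.75 with vehicle, under background on all 6 arrays. Including both Fst probe sets, 3 of the 8 tested member probe sets had corticosterone arrays entirely above the vehicle arrays, where 12.5% of all probe sets tested did. These 3 are the ones that passed the filter through their corticosterone signals alone, so this count is no evidence about the members.

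The members that rose differed in size between the couples. On the log2(signal + pseudocount) scale, couple 3 had the smallest difference of the 3 couples for all 4 member probe sets that passed. It had the smallest for 59.6% of the 2953 probe sets that passed in all. For Fst (1372750_at) the margin was narrow, 1.63 against 1.66 in couple 2, and its plain ratio was smallest in couple 2. Without couple 1, 2 or 3 in turn, the log2 fold change of Fst (1372750_at) was 1.65, 2.08 and 2.10, and that of Tmem100 (1389467_at) was 1.89, 1.80 and 2.46. The median absolute difference over all probe sets tested was 0.22, 0.20 and 0.16 in couples 1, 2 and 3 on the log2(signal + pseudocount) scale. Among cell type markers, the summed signal of 14 meningeal, pericyte and fibroblast markers on the array was 801 to 3446 with corticosterone and 497 to 1957 with vehicle, with log2 ratios of 1.47, 0.82 and 0.20 in couples 1, 2 and 3. Of these, 6 were tested, 3 rose (Col1a2, Acta2 and Crabp2) and 0 fell, and 0 lay at background on all arrays. For this and the other marker lists, the shares over all genes tested were 11.7% higher and 7.77% lower. The 8 astrocyte markers summed to 31421 to 36911 with corticosterone and 16719 to 23122 with vehicle, and 4 of the 5 tested rose. Most of this summed signal came from Slc1a3 and Gja1. The 6 endothelial markers on the array were all below the filter, with sums of 139 to 231 for corticosterone and 110 to 165 for vehicle, and Pecam1 lay under background on 2 of 3 corticosterone arrays and 3 of 3 vehicle arrays. Of the 4 choroid plexus markers on the array 1 was tested and did not pass, and their sums were 176 to 278 with corticosterone and 156 to 493 with vehicle. Of 8 neuronal markers, all tested, 0 rose and 1 fell, Tubb3, a neuronal tubulin gene, at -0.52 on the log2 scale (limma adjusted p = 0.034). The neuronal sums, mostly from Map2, were 7716 to 11399 with corticosterone and 10501 to 11369 with vehicle. Of the 7 oligodendrocyte lineage markers on the array 4 were tested, 0 rose and 2 fell, Pdgfra, a growth factor receptor gene of oligodendrocyte precursors, at -1.64 and Cnp, a myelin enzyme gene, at -0.30 (limma adjusted p = 2.9e-05 and 0.032). The sums of the oligodendrocyte lineage markers, which come mostly from Olig1, were 18331 to 24691 with corticosterone and 21635 to 26681 with vehicle. Of 7 microglial markers 2 were tested and did not pass, with sums of 290.0 to 318 for corticosterone and 226 to 272 for vehicle, and Itgam lay at or under background on all 6 arrays. Of the 11 progenitor markers, all tested, 2 rose and 0 fell. They were Nes at 0.26 and Emx2 at 0.54 on the log2 scale (limma adjusted p = 0.019 and 0.0012). The log2 ratios of the sums also fell from couple 1 to couple 3 for astrocyte markers (0.95, 0.67 and 0.57) and progenitor markers (0.15, 0.085 and 0.024). In the same order they were 0.82, 1.07 and -0.24 for endothelial, 0.36, 0.23 and 0.26 for microglial and 0.18, -0.83 and -0.13 for choroid plexus markers. Neuronal markers gave -0.49, -0.12 and 0.0038, and oligodendrocyte lineage markers -0.38, -0.15 and -0.11. The part of these cell types in the members' changes was not tested.

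**Figure D3:**
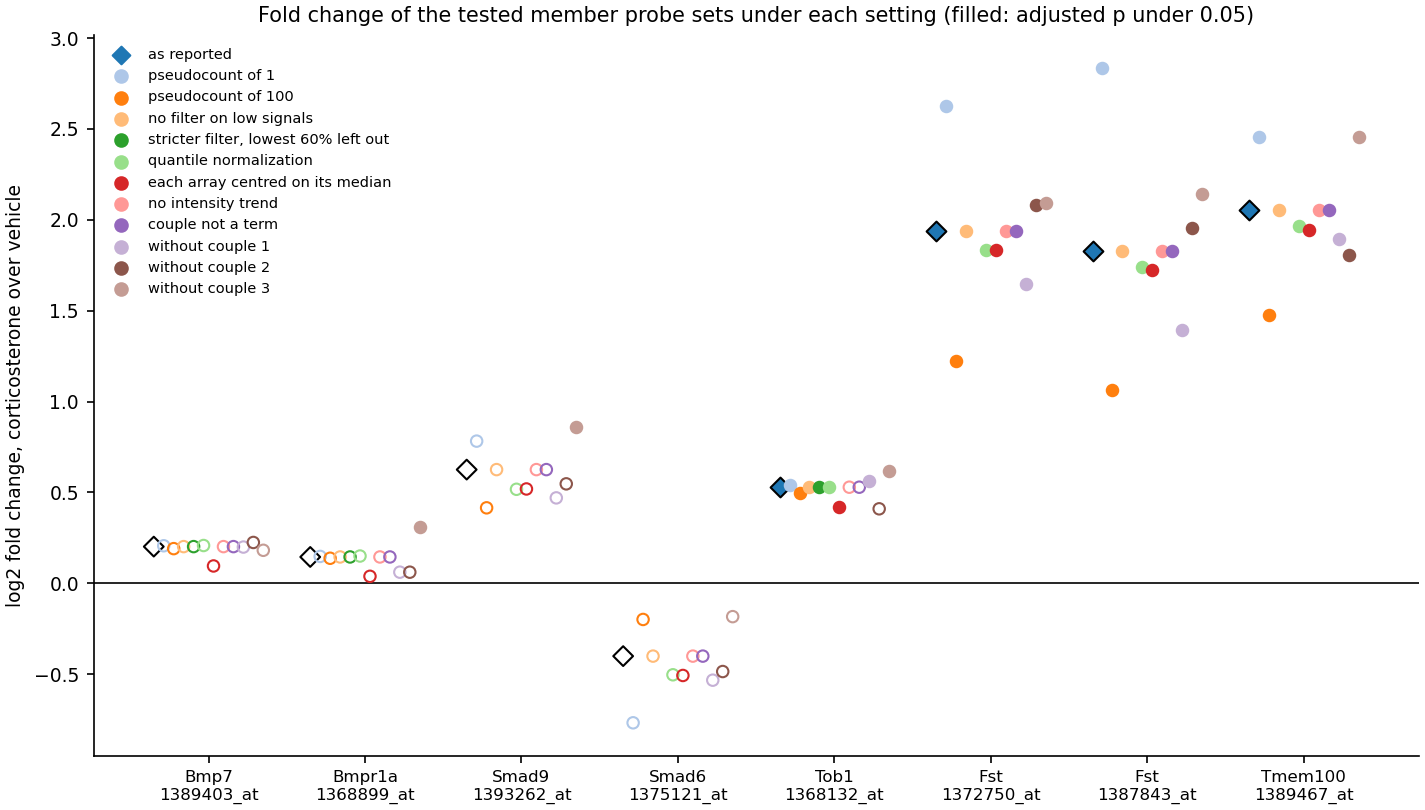
Log2 fold change, corticosterone over vehicle, of the 8 tested member probe sets as reported (diamonds) and under the other settings (circles), filled where the limma adjusted p was under 0.05. Fst and Tmem100 stay filled under each setting in which they were tested, Tob1 is open under 3 settings, and Smad9 and Bmpr1a are filled only without couple 3.

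The other genes of the pathway were taken from lists chosen with earlier results of these data known. Of 98 named genes 79 had a probe set and 44 were tested, of which 12 rose, 4 fell and 28 did not pass, shares of 27.3% and 9.09% against 11.7% and 7.77% of all genes tested. Their median log2 fold change was 0.10. In the unpaired model, without the couple as a term, 3 rose and 1 fell, and without the intensity trend 7 rose and 1 fell. Centring each array on its median, which moved the median of all probe sets tested to -0.11, left 9 higher and 6 lower. Of all 18625 probe sets tested, 1751 rose and 1202 fell as reported. The counts were 362 and 55 in the unpaired model, 960 and 302 without the trend, and 1246 and 2846 with centring.

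The list of secreted antagonists, which also holds the membrane protein gene Crim1, had 3 of 5 tested genes higher and none lower. Of all genes tested 11.7% were higher and 7.77% lower. Fstl1, which encodes a follistatin-like glycoprotein, had signals of 3009, 3728 and 2609 with corticosterone, against 1096, 1755 and 1470 with vehicle, and its 3 probe sets all rose. Its log2 fold change was 1.11 ± 0.10 (SE; limma adjusted p = 4.6e-05). Nog, which encodes the BMP antagonist noggin, had 235, 152 and 141 with corticosterone, against 145, 80.0 and 96.8 with vehicle, higher in each couple (log2 fold change 0.59, limma adjusted p = 0.027). Crim1, a transmembrane BMP-binding protein gene, rose by 0.44 (limma adjusted p = 0.043), though it was higher in 2 of 3 couples only, and by 0.67 without couple 3. Nog and Crim1 did not pass in the unpaired model, without the filter, with quantile normalization, or without couple 1 or 2, and Crim1 did not with median centring or without the intensity trend (limma adjusted p from 0.051 to 0.36 over these). Nbl1 and Twsg1, which encode further BMP-binding proteins, did not pass, with log2 fold changes of 0.23 and 0.06. A second Twsg1 probe set did pass, with 0.36 (limma adjusted p = 0.039).

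Of the 4 genes tested from the ligand lists besides the members and the TGF-β group, none passed at the brighter probe set. Of all genes tested 19.5% passed in either direction. Among the 4 were Bmp1 at 0.15, the inhibin and activin subunit Inhbb at -0.08 and Gdf11 at 0.13 on the log2 scale. Bmp1 encodes a procollagen protease and not a ligand, and was the 1 gene of the BMP and GDF list that was tested. A second Bmp1 probe set rose by 0.52 (limma adjusted p = 0.032). Ltbp1, whose product holds latent TGF-β in the matrix, had signals of 1114, 1767 and 610 with corticosterone, against 215, 982 and 303 with vehicle. It was the 1 gene of 5 in its list that rose (log2 fold change 1.33, limma adjusted p = 0.0015), where 11.7% of all genes tested rose. It did not pass in the unpaired model or without the intensity trend (limma adjusted p = 0.25 and 0.057), and its log2 fold change without couple 1 was 0.89. Of 9 receptors and co-receptors 0 rose and 1 fell, where 11.7% of all genes tested rose and 7.77% fell. Acvr1, a type I receptor of BMPs, fell at its brightest probe set (-0.30, limma adjusted p = 0.030), while its other probe sets gave 0.15 and -0.14 and did not pass. That call ended in the unpaired model, without the filter or the trend, and without any 1 of the couples (limma adjusted p from 0.056 to 0.26).

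**Figure D4:**
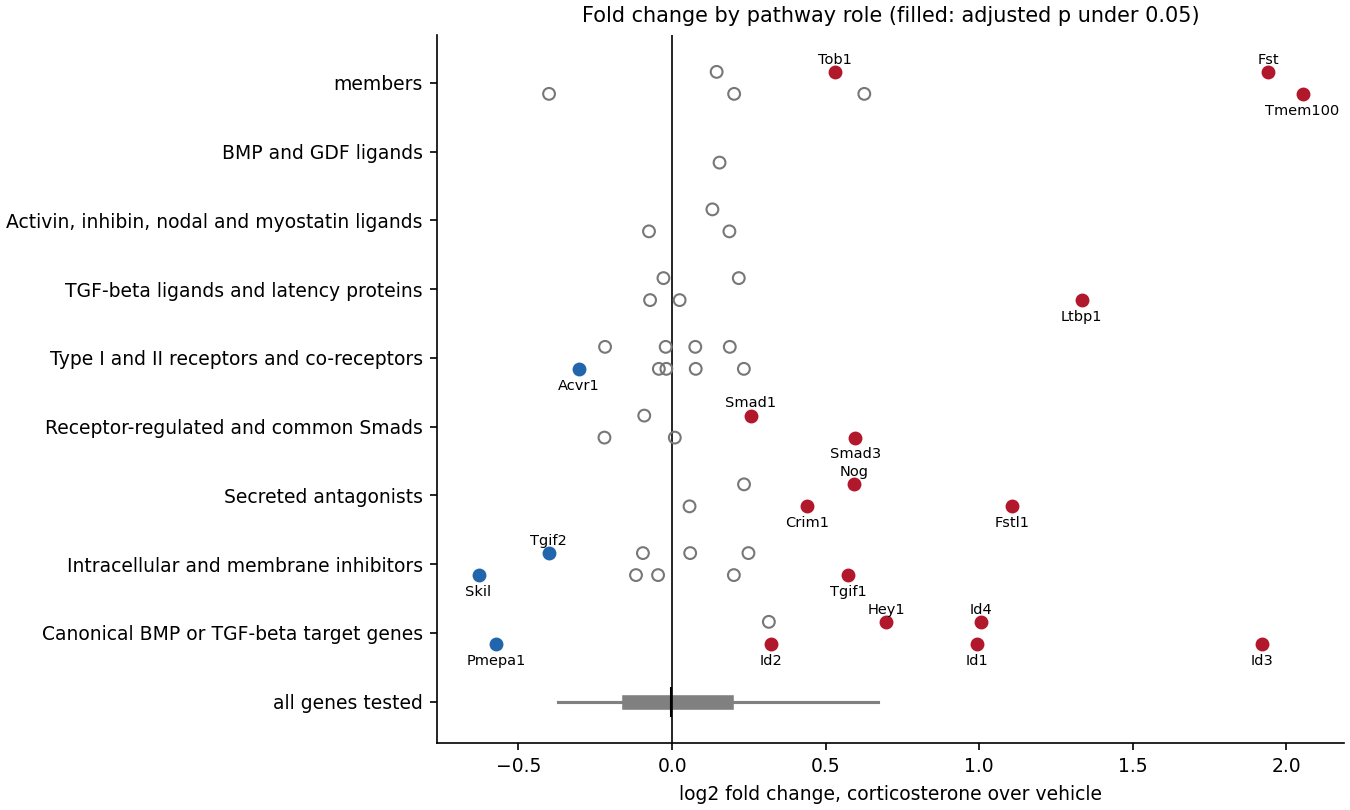
Log2 fold change, corticosterone over vehicle, of each tested gene by role, with members in the top row and filled, named points for genes at a limma adjusted p under 0.05 (red higher, blue lower). In the bottom row the thick bar runs from the 25th to the 75th percentile of all 9910 genes tested, from -0.14 to 0.18, and the thin bar from the 5th to the 95th, from -0.37 to 0.67. Fst and Tmem100 lie beyond the upper end of the thin bar, and Smad6, at -0.40 and not called, beyond its lower end.

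Of the 5 receptor-regulated and common Smads 2 rose and 0 fell, where 11.7% of all genes tested rose and 7.77% fell. Smad3, of the activin and TGF-β branch, had 390, 416 and 391 with corticosterone, against 230, 325 and 218 with vehicle (log2 fold change 0.60 ± 0.13, SE; limma adjusted p = 0.0080). Smad1, of the BMP branch as Smad9 is, rose by 0.26 (limma adjusted p = 0.032), and its second probe set gave 0.32 (limma adjusted p = 0.072). Smad3 did not pass in the unpaired model (0.11), nor did Smad1 (0.22), which also did not pass with median centring (0.15 on the log2 scale) or without the filter, the trend or any of the couples. Smad4 had a log2 fold change of 0.009 and did not pass. Smad5 was lower in each couple, at -0.22, and missed the threshold narrowly (limma adjusted p = 0.052). Its other tested probe sets gave -0.22, -0.23 and -0.21 and did not pass. Among 9 intracellular and membrane inhibitors 1 rose and 2 fell, shares of 11.1% and 22.2% against 11.7% and 7.77% of all genes tested. Tgif1 rose by 0.57, Skil fell by 0.63 and Tgif2 fell by 0.40 on the log2 scale (limma adjusted p = 2.9e-04, 4.3e-04 and 0.014), all 3 being nuclear corepressors of Smads. Skil passed under every setting tried. Tgif1 and Tgif2 did not pass in the unpaired model (limma adjusted p = 0.084 and 0.15), and Tgif2 did not without the trend, couple 1 or couple 2 (0.062, 0.056 and 0.13).

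Of 7 tested target genes of BMP or TGF-β signalling 5 rose and 1 fell, where 11.7% of all genes tested rose and 7.77% fell. Id1, Id2, Id3 and Id4 had log2 fold changes of 0.99, 0.32, 1.92 and 1.00, and Id2 and Id4 did not pass in the unpaired model (limma adjusted p = 0.61 and 0.079). Id2 did not pass with median centring or without the trend, couple 1 or couple 2 (limma adjusted p from 0.060 to 0.15), and its other probe set gave 0.18. Hey1, a Notch and BMP target that encodes a transcriptional repressor, had 1148, 2168 and 1015 with corticosterone, against 593, 1085 and 885 with vehicle (log2 fold change 0.70, limma adjusted p = 0.0045). Pmepa1, a TGF-β-induced inhibitor of Smad signalling, had 343, 629 and 655 with corticosterone, against 713, 672 and 1030 with vehicle (log2 fold change -0.57, limma adjusted p = 0.019). Neither passed in the unpaired model or without the trend (limma adjusted p from 0.079 to 0.30), nor did Hey1 without couple 2 (0.083) or Pmepa1 without the filter, couple 1 or couple 3 (0.076, 0.12 and 0.073). The log2 fold change of Pmepa1 without couple 1 was -0.36.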

How the data were processed

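RNA of 6 samples was measured on 1-colour Affymetrix arrays. The labels' protocols give TRIzol for extraction and 3 µg of total RNA primed with oligo(dT), which weights signal towards the 3′ end. The deposited values are signal intensities on a linear scale that the authors made with MAS5, per the submitters' processing notes. Detection calls and MAS5 settings were not used here. Each array had the same mean, 500.2, once the extreme 2% at either end were removed.

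Signals were transformed to log2(signal + 28.6), the pseudocount being the 25th percentile of all values. The 57 control probe sets and the 40% of the rest with the lowest mean were left out, leaving 18625. With limma 3.58.1 in R 4.3.3 (lmFit, eBayes, variance trend on intensity), treatment and couple were fitted over all of them and tested two-sided at a Benjamini-Hochberg adjusted p of 0.05. The brightest tested probe set stood for each gene. The series text gives the couples, and deviations from group means correlated by 0.57, 0.52 and 0.35 between samples of the same number and by -0.48 to 0.0034 otherwise. Leaving out a couple removes both of its arrays. Batches and scan dates could not be looked at.

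The annotation gave 1 symbol for 20826 probe sets, several for 436 and none for 9780, and 20758 matched the RefSeq gene table of GRCr8 by identifier. Only a probe set with 1 symbol named a gene. Members and lists were chosen with earlier results of these data known. All members are described, and of the listed pathway genes those that passed and at most 2 per list that did not. Alternatives were 11 settings of the fit and an average over each gene's probe sets.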

Additional observations from a re-analysis of the deposited data

How the results depend on the processing

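Of the 18625 probe sets tested 2953 passed, and 1862 without the filter, 1262 without the intensity trend, 417 without the couple as a term (no replicate block) and 1192 to 2807 with 1 couple left out, the lowest without couple 2 and 1677 without couple 1. After median centring 30.4% of the calls were higher, against 59.3% as reported and 56.4% with quantile normalization. Among members, 4 probe sets and 3 genes passed. With the stricter filter, where Fst and Tmem100 were not tested, 1 probe set and 1 gene did. Leaving out 1 couple gave 3 to 6 probe sets and 2 to 5 genes, the highest without couple 3. Without the couple as a term (replicate block) 3 probe sets and 2 genes did, and Tob1 was the member lost. Of the pathway lists 16 genes passed, and 8 without the trend, 4 without the replicate block and 9 to 13 with 1 couple left out, 9 without couple 1 and 9 without couple 2. Over all settings 78 member values kept their side of the threshold, 3 no longer passed and 2 passed newly, and 0 changed direction. Values of the pathway genes that had passed kept it in 128 cases and lost it in 47. Dim signal limits Bmp4, Inhba, Smad6 and Smad7 most.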

Other observations

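Of 35 pathway genes on the array that lay below the low-signal filter, 3 had groups that did not overlap, where 12.8% of all probe sets below the filter did. They are named here after their values were seen. Bmp2, a BMP ligand gene, had signals of 130, 153 and 49.7 with corticosterone, against 27.0, 25.5 and 38.5 with vehicle. Its log2 fold change without the filter was 1.16 ± 0.32 (SE; limma adjusted p = 0.078), so it did not pass. Fstl3, which encodes a follistatin-related activin-binding protein, had 40.02, 92.0 and 55.7 with corticosterone, against 5.25, 25.7 and 5.11 with vehicle, and passed without the filter (log2 fold change 1.16, limma adjusted p = 0.017). Lox, a collagen-crosslinking enzyme gene that TGF-β induces, had 113, 142 and 46.6 with corticosterone, against 5.59, 34.1 and 6.48 with vehicle (1.53, limma adjusted p = 0.013). Ccn2, the connective tissue growth factor gene, passed without the filter as well, with overlapping groups of 53.5, 277 and 55.6 with corticosterone, against 12.1, 90.0 and 21.5 with vehicle (1.04, limma adjusted p = 0.036). For Fstl3, Lox and Ccn2 the vehicle signal was under background on 2 of 3 arrays.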
